A study of Mus musculus with 6 samples.

Results

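TRIM proteins are a large family of ubiquitin ligases, and 44 rows of a table of 17217 genes carried a symbol made of Trim, a number and at most 1 letter, leaving out Trim25 and Trim30a. They were measured in RNA from LPS-treated mouse cells labelled as bone marrow-derived macrophages (BMDMs), 3 Control libraries (genotype Con, Cd74 wild type) and 3 Cd74 knockout libraries (genotype KO). The labels' protocols give 8-week-old mice as the source of marrow, 30 ng/mL of the growth factor M-CSF to make macrophages, and 24 h of lipopolysaccharide (LPS, a bacterial wall component) at 100 ng/mL, the same for all 6. That protocol text speaks of WT mice for every library, so the genotype was taken from titles and genotype labels. The labels put the Controls in batch 1 and the knockouts in batch 2, which means that genotype and batch cannot be told apart in any difference given here. Whether replicates came from separate mice or dishes is not in the labels, and the spread behind each p-value may therefore be technical. The question was which genes differ when such cells lack CD74, a chaperone of MHC class II that also binds the cytokine MIF at the cell surface.

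A typical TRIM protein starts with a RING domain, which binds an E2 enzyme loaded with ubiquitin, followed by B-box zinc fingers and a coiled coil through which the protein pairs with a copy of itself. The domain at the other end picks the substrate and divides the family into classes. In macrophages, several members tune the sensing of nucleic acids and LPS, and many are interferon-induced, while others act in chromatin, on microtubules or at membranes.

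Levels are given in TPM, a share of all transcripts corrected for gene length, so genes may be set side by side. A mean of at least 1 TPM over the 6 libraries was reached by 33 of the 44 TRIM genes, and 11 were lower. Just inside that limit stood Trim65 at a mean of 1.86 TPM and just outside it Trim43c at 0.731 TPM. The median level of the 33 was 16.9 TPM, against 20.2 TPM over the 13034 genes of the table above the same limit. All 44 TRIM rows gave whole read numbers in all 6 libraries, with at least 91 reads behind each value of the 33.

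Trim35, Trim28, Trim44, Trim8 and Trim41 were the 5 most abundant and held 47.5% of the family's summed mean. Trim35, a ligase with a PRY-SPRY domain first described in macrophages undergoing apoptosis, stood at 203, 203 and 194 TPM in Control and 182, 177 and 169.9 TPM in knockout libraries. Trim44, which has a ubiquitin-specific protease type zinc finger in place of a RING, stood at 65.3, 70.8 and 69.1 TPM in Control and 70.3, 72.6 and 70.7 TPM in knockout libraries. Trim8, which promotes TAK1 signalling to NF-kB, stood at 62.5, 58.7 and 59.7 TPM in Control and 57.2, 57.7 and 57.7 TPM in knockout libraries. The Control libraries were all above the knockout libraries for Trim35 and, narrowly, for Trim8, while the groups overlapped for Trim44.

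Of the 32 pairs of neighbours in the order of levels, 16 had overlapping ranges in Control and 17 in knockout libraries. Only 7 pairs were apart in both groups, among them Trim35 and Trim28, and Trim28 and Trim44. Trim8 and Trim41 overlapped in both, as did Trim27, Trim12c and Trim59 in sequence. The summed level of the 44 genes was 1008 ± 13.8 TPM in Control and 1035 ± 5.24 TPM in knockout libraries (SD, n = 3 each). After median-of-ratios scaling the sums were 1021 and 1018 TPM, so their order turned with the scaling.

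**Figure D1:**
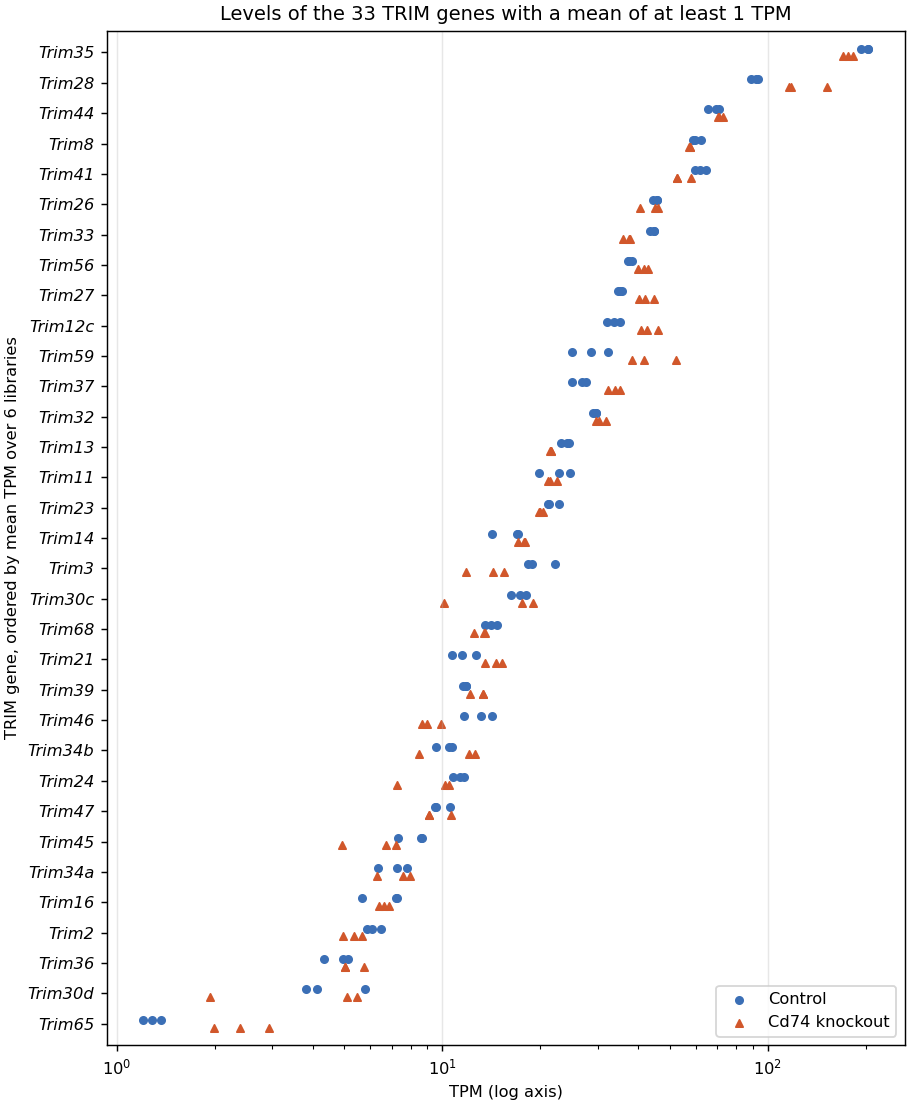
TPM (log axis) of the 33 TRIM genes with a mean of at least 1 TPM, ordered by mean, with 1 point for each of 3 Control libraries (circles) and 3 knockout libraries (triangles). Levels run from Trim65 (mean 1.86 TPM) to Trim35 (mean 188 TPM), and most genes lie close to the same level in both groups.

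Differences were tested with limma on log2(TPM + 1) over all 13034 genes, and an adjusted p (Benjamini-Hochberg) under 0.05 was called. All log2 fold changes use this scale and so are smaller than the true change where a gene is low. Of the 33 TRIM genes, 7 were higher in the knockout and 5 lower, and 21 were not called. That is 36.4% called, against 28.5% of all tested genes (18.5% higher and 10.1% lower). Median-of-ratios scaling gave 6 TRIM genes higher and 6 lower, and moved the calls over all tested genes from 2406 higher and 1313 lower to 1814 and 1756. The median log2 fold change was -0.04 over the 33 and 0.04 over all tested genes. No TRIM gene moved by 1 or more on the log2 scale, which 1.44% of all tested genes did, and the range was -0.49 to 0.60. Groups did not overlap for 20 of the 33 (9 higher, 11 lower), against 50.0% of all tested genes (30.2% higher, 19.8% lower). In bulk RNA, fewer cells of a type and less RNA per cell cannot be told apart.

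**Figure D2:**
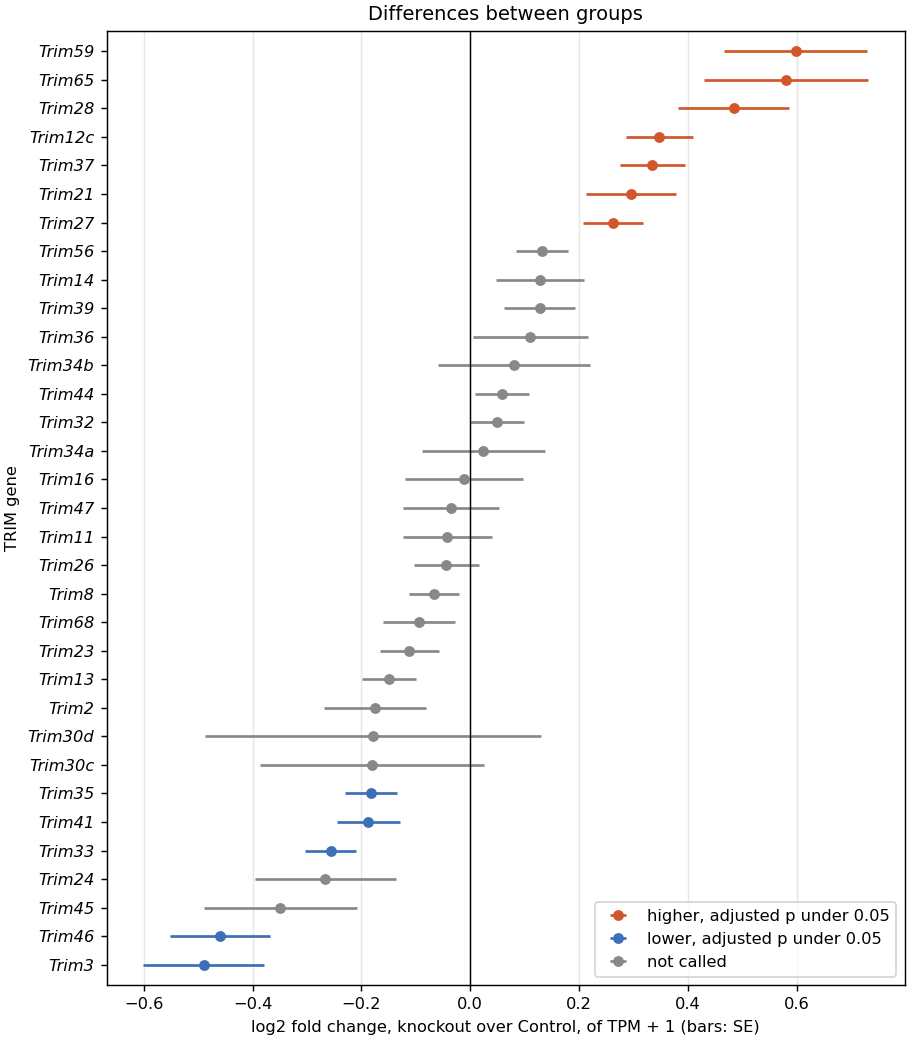
Log2 fold change (knockout over Control, of TPM + 1) of the 33 tested TRIM genes, with bars of 1 SE from limma. The 7 genes called higher run from 0.26 (Trim27) to 0.60 (Trim59), and the 5 called lower from -0.49 (Trim3) to -0.18 (Trim35).

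The class with both a RING and a PRY-SPRY domain is the largest and uses the PRY-SPRY domain to hold its substrates. It had 23 rows, of which 15 were tested, with 4 called higher (Trim12c, Trim21, Trim27 and Trim65), 2 lower (Trim35 and Trim41) and 9 not called, where 18.5% of all tested genes were higher and 10.1% lower. The median log2 fold change of the 15 was -0.04.

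Several of these genes are induced by interferon, and their promoters were read for the core of the interferon-stimulated response element, a promoter site through which interferon turns genes on. The core searched was GAAA, any 2 bases and GAAA again, on both strands, in windows from 250 bases before to 50 bases after each start in RefSeq (GRCm38.p6). Windows were found by symbol for 30 of the 44 TRIM genes, some with more than 1 window. At least 1 core lay in 7 of the 30 (23.3%) and in 6 of the 24 tested genes with a window (25%), against 3.99% of the 27018 genes in the promoter table. A match is a description of the letters, and copies of 1 ancestral gene share them. The stretches below are shown so that the core can be compared between TRIM genes that differ in level. Capitals mark the core, read 5′ to 3′ on the gene's strand.
Trim12c: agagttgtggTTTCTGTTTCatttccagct
Trim12a: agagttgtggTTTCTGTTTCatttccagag
Trim34a: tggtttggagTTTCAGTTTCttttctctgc
Trim30d: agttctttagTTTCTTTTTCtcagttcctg
Trim21: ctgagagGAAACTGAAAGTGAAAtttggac
Trim26: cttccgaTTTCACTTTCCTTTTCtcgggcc
Trim2: tcagctttggTTTCCTTTTCtctaagacag

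These 30-base stretches lie at chr7:104353359-104353388 (Trim12c, minus strand), chr7:104315466-104315495 (Trim12a, minus), chr7:104244457-104244486 (Trim34a, plus), chr7:104507871-104507900 (Trim30d, minus), chr7:102565447-102565476 (Trim21, minus), chr17:36836979-36837008 (Trim26, plus) and chr3:84212791-84212820 (Trim2, minus, 1 of its 5 windows). Trim21 and Trim26 each carried 2 overlapping cores. Relative to the annotated start, the first core base lay at -29 (Trim12c), -41 (Trim30d) and -160 (Trim26), all before it. It lay past the start at 10 (Trim12a), 10 (Trim34a), 13 (Trim21) and 28 (Trim2). Of the 8 called TRIM genes with a window, 2 held a core (Trim12c and Trim21), and of the 16 not called, 4 did (Trim2, Trim26, Trim30d and Trim34a).

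Trim12c, a mouse relative of TRIM5 that works with TRAF6 in interferon and NF-kB signalling, stood at 32.1, 33.7 and 35.1 TPM in Control and 42.4, 45.9 and 40.9 TPM in knockout libraries. All knockout libraries were above all Control libraries, and the gene rose by 0.35 (SE 0.06, limma adjusted p = 0.00881). The 250 bases before its start, chr7:104353350-104353599 on the minus strand (GRCm38.p6), are shown because its close copy Trim12a has a similar window and a far lower level. The annotated starts differ in place: the core begins at -29 from the start in Trim12c but at 10, past the start, in Trim12a.
Trim12c: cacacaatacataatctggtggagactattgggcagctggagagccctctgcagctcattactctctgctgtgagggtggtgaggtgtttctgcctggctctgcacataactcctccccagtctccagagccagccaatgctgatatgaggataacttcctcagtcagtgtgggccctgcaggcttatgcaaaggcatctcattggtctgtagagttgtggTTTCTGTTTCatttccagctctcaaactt
Aligned with the Trim12a window, 247 of 261 columns (94.6%) were identical, and the 30-base stretches around the core differed at 2 bases. Trim12a itself stood at 0.140 to 0.288 TPM (12 to 28 reads), too low to test, and the groups overlapped.

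Trim21, the cytosolic antibody receptor that marks antibody-coated viruses for destruction, stood at 11.5, 12.7 and 10.7 TPM in Control and 13.5, 14.6 and 15.2 TPM in knockout libraries. Knockout libraries were all above Control libraries, a rise of 0.30 (SE 0.08, limma adjusted p = 0.0352). The call ended under median-of-ratios scaling (adjusted p = 0.0557) and upper-quartile scaling (0.0563). It also ended without Control replicate 1 (0.0907) or 3 (0.11), or without knockout replicate 2 (0.0958) or 3 (0.0735).

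Trim27, which activates the WASH complex on endosomes, stood at 34.5, 35.1 and 35.6 TPM in Control and 42.0, 40.2 and 44.8 TPM in knockout libraries. All knockout values lay above the 3 Control values, a rise of 0.26 (SE 0.05, limma adjusted p = 0.0138). Trim65, a ligase that activates the RNA sensor MDA5, stood at 1.37, 1.28 and 1.21 TPM in Control and 1.99, 2.38 and 2.93 TPM in knockout libraries, or 91 to 121 and 210 to 290 reads. Its mean was 1.90-fold higher in the knockout, the largest ratio of means among the 33, with a log2 fold change of 0.58 (SE 0.15, limma adjusted p = 0.0283). This call ended when any library other than knockout replicate 1 was left out, with adjusted p = 0.0617, 0.0713 and 0.0827 without Control replicates 1 to 3 and adjusted p = 0.0732 and 0.072 without knockout replicates 2 and 3.

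The 2 called lower in this class moved little. Trim35 (values above) fell by 0.18 (SE 0.05, limma adjusted p = 0.0275), or 11.9% of its Control mean. Trim41, a ligase for protein kinase C, stood at 64.6, 61.9 and 59.7 TPM in Control and 57.9, 52.6 and 52.7 TPM in knockout libraries and fell by 0.19 (SE 0.06, limma adjusted p = 0.0485). Groups did not overlap for either gene. Trim35 lost its call without Control replicate 1, 2 or 3 or knockout replicate 2 (adjusted p = 0.0784, 0.0854, 0.0581 and 0.0804). Trim41 lost it without any library other than knockout replicate 1 (adjusted p = 0.131, 0.112 and 0.0803 without Control replicates 1 to 3, and 0.144 and 0.0901 without knockout replicates 2 and 3).

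The other 9 tested genes of the class with a RING and a PRY-SPRY domain had log2 fold changes of -0.18 to 0.13. Trim26, which acts on IRF3, was at 45.2 ± 0.599 TPM in Control and 43.9 ± 3.01 TPM in knockout libraries (SD, n = 3 each). Trim39 was at 11.8 ± 0.123 and 12.9 ± 0.646 TPM, and its groups did not overlap. Trim11, Trim47 and Trim68 had log2 fold changes of -0.04, -0.04 and -0.09, and the remaining 4 belong to the chromosome 7 cluster.

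That cluster holds close copies of the Trim5 kind, and reads may have been shared among them. In RefSeq order along chromosome 7 (GRCm38.p6), the genes with a row were Trim34a, Trim12a, Trim34b, Trim12c, Trim30b, Trim30c, Trim30a and Trim30d, with means of 7.20, 0.194, 10.6, 38.3, 0.580, 16.4, 141 and 4.37 TPM. The 2 genes under 1 TPM, Trim12a and Trim30b, lay between genes with higher levels. Trim30a, an inhibitor of TLR signalling through TAB2 and TAB3, lies outside the 44 and was called higher, at 117 ± 5.71 and 166 ± 8.56 TPM (log2 fold change 0.50, SE 0.06, limma adjusted p = 0.00295).

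Its neighbours Trim30c and Trim30d were not called. Trim30c stood at 18.01, 17.3 and 16.2 TPM in Control and 18.9, 17.6 and 10.1 TPM in knockout libraries, and Trim30d at 5.78, 3.81 and 4.13 TPM and 5.09, 5.46 and 1.93 TPM. Knockout replicate 3 was the lowest of the 6 for both. It was also the lowest for Trim34b (8.49 TPM, against 12.04 and 12.6 TPM in the other knockout libraries). For Trim34a, Control replicate 1 (6.34 TPM) was nearly as low as knockout replicate 3 (6.31 TPM). Without that library the log2 fold changes went from -0.18 to 0.08 for Trim30c, from -0.18 to 0.19 for Trim30d, from 0.08 to 0.24 for Trim34b and from 0.02 to 0.11 for Trim34a, and none was called. Knockout replicate 3 stood outside the range of the other 5 libraries for 21 of the 33 TRIM genes and for 61.5% of all tested genes. Control replicate 1 did so for 20 of the 33 and for 50.5% of all tested genes. Each remaining library did so for 3 to 9 of the 33 and for 19.2% to 26.4% of all tested genes.

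**Figure D3:**
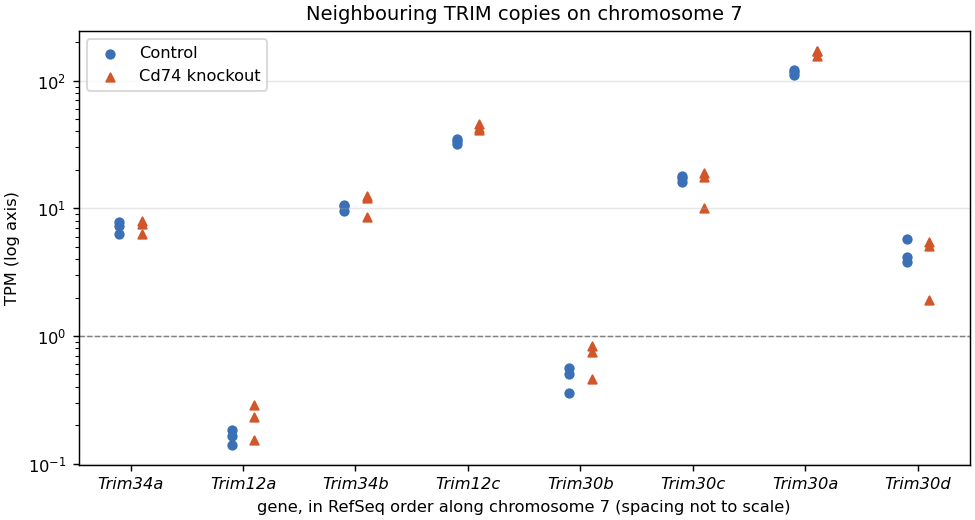
TPM (log axis) of 8 neighbouring TRIM genes in RefSeq order along chromosome 7, with 3 Control (circles) and 3 knockout (triangles) libraries each and a dashed line at 1 TPM. Trim30a is above its Control level in all knockout libraries, and 1 knockout library is low for Trim34b, Trim30c and Trim30d.

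The class with PHD and bromodomain chromatin readers holds Trim24, Trim28, Trim33 and Trim66, of which Trim28 was called higher and Trim33 lower. Trim28 (KAP1), the corepressor that KRAB zinc finger proteins recruit to silence retroelements, stood at 88.6, 93.3 and 91.6 TPM in Control and 118, 116 and 152 TPM in knockout libraries. It rose by 0.48 (SE 0.10, limma adjusted p = 0.0144), with no overlap. Knockout replicate 3 was the highest, and without it the rise was 0.36 (adjusted p = 0.00316). Without Control replicate 1 the gene was not called (adjusted p = 0.0531).

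Trim33, a ligase for SMAD4 that also restrains Ifnb1 in macrophages, stood at 43.5, 44.8 and 44.8 TPM in Control and 37.3, 37.7 and 35.9 TPM in knockout libraries. The 2 groups were each tight and apart, and the gene fell by 0.26 (SE 0.05, limma adjusted p = 0.00914). Trim24, a coregulator of nuclear receptors and a ligase for p53, stood at 11.3, 11.7 and 10.8 TPM in Control and 10.2, 10.5 and 7.28 TPM in knockout libraries, with a log2 fold change of -0.27 (SE 0.13) that was not called. Its groups did not overlap, and without knockout replicate 3 the value was -0.12. Trim66 fell under the limit for testing, with 0.240 to 0.357 TPM in Control (38 to 58 reads) and 0.121 to 0.206 TPM in knockout libraries (22 to 35 reads), and was the 1 gene of the 11 low ones whose groups did not overlap (17.7% of all low genes of the table).

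Relatives left out of the 44 can be set beside these. Trim25, which activates the RNA sensor RIG-I, fell from 425 ± 22.5 to 325 ± 9.91 TPM (-0.38, SE 0.05, limma adjusted p = 0.00454) and was more abundant than any of the 44. Pml, the organiser of PML nuclear bodies, rose from 28.7 ± 0.664 to 44.8 ± 1.01 TPM (0.63, SE 0.05, limma adjusted p = 0.000826). Mid1 was not called, Mid2 was too low to test, and Mefv and Trim16l were listed but had no row.

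Partners of Trim28 and Trim33 were taken as a list of 14, the methyltransferase Setdb1 and its cofactor Atf7ip, HP1 proteins, NuRD subunits and SMADs. Of these, 9 were higher, 1 lower and 4 not called, with a median log2 fold change of 0.23, where 18.5% of all tested genes were higher and 10.1% lower with a median of 0.04. Under median-of-ratios or upper-quartile scaling, 6 were higher and 1 lower. Cbx5, which encodes HP1 alpha, rose from 60.5 ± 6.48 to 93.2 ± 7.86 TPM, and Cbx3, HP1 gamma, from 35.3 ± 3.36 to 54.0 ± 4.33 TPM (SD, n = 3 each). The histone-binding subunit gene Rbbp7 rose by 0.57 and the deacetylase gene Hdac1 by 0.37. Smad4, the substrate of Trim33, was the 1 that fell, from 62.6 ± 1.97 to 54.0 ± 1.56 TPM (-0.21, limma adjusted p = 0.0187), a gene singled out after its values were seen. It lost its call without Control replicate 3 (0.0754) or knockout replicate 2 (0.0549). The list's 10 calls went to 6 without Control replicate 1 and to 4 without Control replicate 3.

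NHL-repeat members bind RNA or substrates through a propeller and include Trim2, Trim3 and Trim32, all 3 tested. Trim3, studied mainly in neurons, stood at 22.2, 18.9 and 18.4 TPM in Control and 15.4, 14.3 and 11.9 TPM in knockout libraries. It had the largest fall of the 33, -0.49 (SE 0.11, limma adjusted p = 0.0178), with no overlap, and lost its call without Control replicate 1 (adjusted p = 0.0584). Trim2, a ligase for neurofilament light chain, was at 6.14 ± 0.312 and 5.33 ± 0.374 TPM, with groups apart and not called. Trim32, a ligase mutated in limb-girdle muscular dystrophy, was at 29.5 ± 0.442 and 30.5 ± 1.10 TPM.

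Of members with a COS box, which binds microtubules, Trim36, Trim46 and Trim55 had a row. Trim46, which bundles microtubules at the axon initial segment, stood at 14.2, 13.1 and 11.7 TPM in Control and 8.67, 9.88 and 8.96 TPM in knockout libraries. Every Control library was above every knockout library, and the gene fell by 0.46 (SE 0.09, limma adjusted p = 0.0123). Trim36 was not called (0.11, SE 0.11). Trim55, a muscle gene, was at 0 to 0.268 TPM (0 to 12 reads).

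The membrane-anchored members Trim13 and Trim59, Trim37 with a MATH domain and Trim23 with an ARF domain were all tested. Of these 4, 2 were called, both higher, where 28.5% of all tested genes were called and 18.5% were higher. Trim59, linked to proliferation, stood at 25.0, 32.3 and 28.7 TPM in Control and 38.3, 41.5 and 52.3 TPM in knockout libraries. It had the largest log2 rise of the 33, 0.60 (SE 0.13, limma adjusted p = 0.016), without overlap, and lost its call without Control replicate 1 (adjusted p = 0.0547) or 3 (0.0531). Trim37, a centrosome and peroxisome ligase mutated in mulibrey nanism, stood at 25.0, 27.6 and 26.9 TPM in Control and 32.2, 33.9 and 35.0 TPM in knockout libraries. Its groups were apart by a wide margin for their spread, and it rose by 0.33 (SE 0.06, limma adjusted p = 0.00881).

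Trim13, an endoplasmic reticulum ligase, stood at 24.5, 23.2 and 24.2 TPM in Control and 21.5, 21.4 and 21.6 TPM in knockout libraries. No knockout library reached the lowest Control library, but at -0.15 (SE 0.05, limma adjusted p = 0.0607) the test was missed, and the gene was called lower under median-of-ratios (adjusted p = 0.0325) and upper-quartile scaling (0.0301). Trim23, which acts in autophagy, was at 21.7 ± 0.933 and 20.04 ± 0.252 TPM, apart and not called.

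The last group holds members with another C-terminal domain, with none, or without a RING whatever their C-terminal domain. None of its 6 tested members (Trim8, Trim14, Trim16, Trim44, Trim45 and Trim56) was called by limma, where 28.5% of all tested genes were. Of the 6 members, 2 (Trim45 and Trim56) had an unadjusted limma p under 0.05, as did at least 28.5% of all tested genes. Trim45 was called by limma-voom. Trim56, an antiviral ligase that acts on STING, was at 37.7 ± 0.588 and 41.4 ± 1.44 TPM, with groups apart (0.13, SE 0.05, limma adjusted p = 0.08). Trim14, an adaptor without a RING in antiviral signalling, was at 16.1 ± 1.65 and 17.6 ± 0.486 TPM. Trim45 stood at 8.64, 8.61 and 7.33 TPM in Control and 7.18, 6.72 and 4.91 TPM in knockout libraries (-0.35, SE 0.14), and without knockout replicate 3 the log2 fold change was -0.21. Trim16 differed by less than its spread (-0.01, SE 0.11).

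**Figure D4:**
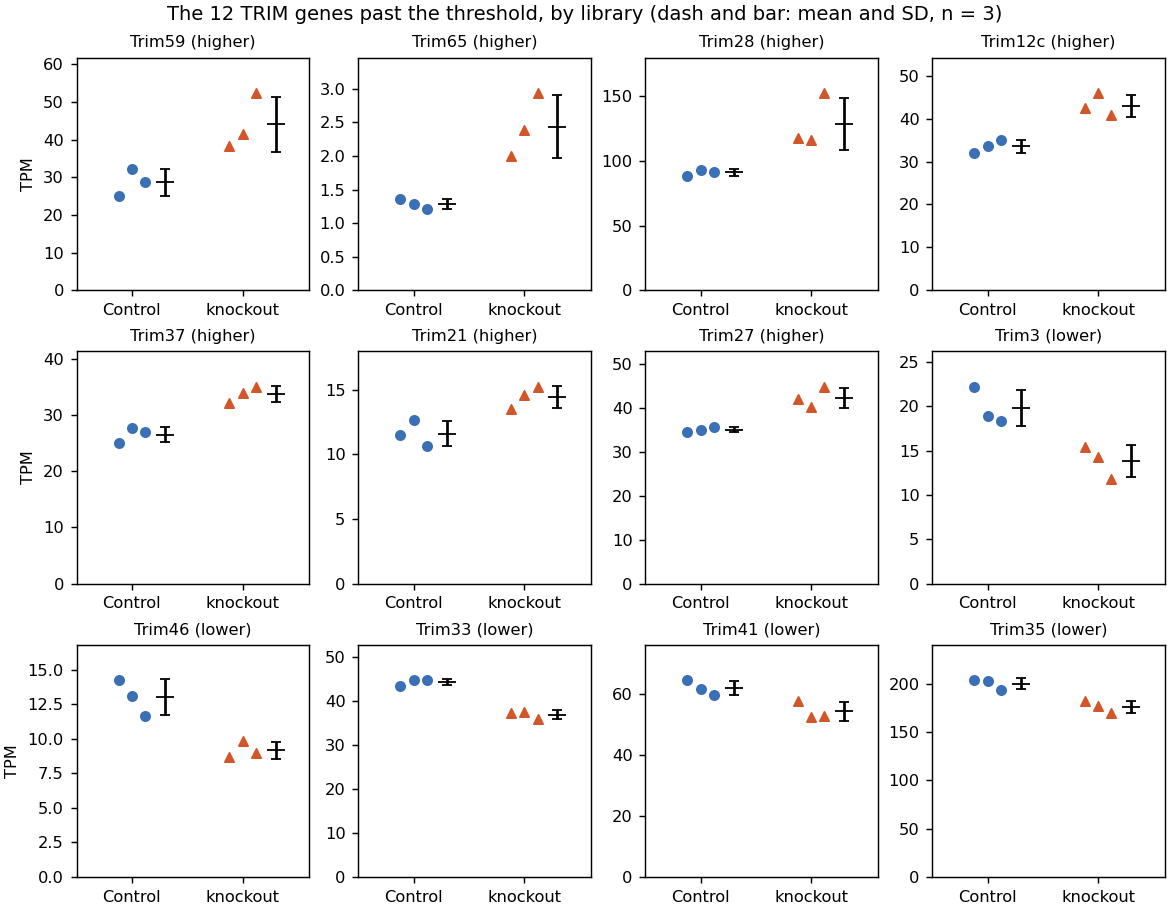
TPM of the 12 called TRIM genes in each of 3 Control (circles) and 3 knockout (triangles) libraries, with the mean and SD of each group beside them, on axes that start at 0. The groups do not overlap in any of the 12 panels, and the differences run from 11.9% of the Control mean (Trim35) to a 1.90-fold ratio (Trim65).

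Calls of 5 genes held under all 15 other settings tried: Trim12c, Trim27 and Trim37 higher, and Trim33 and Trim46 lower. Their highest adjusted p over those settings was 0.0322, 0.0463, 0.0342, 0.0412 and 0.0425. Calls over all tested genes went from 3719 to 1982 without Control replicate 3. How many of the 3719 held under every setting was not counted, so the 5 cannot be set against the whole table.

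**Figure D5:**
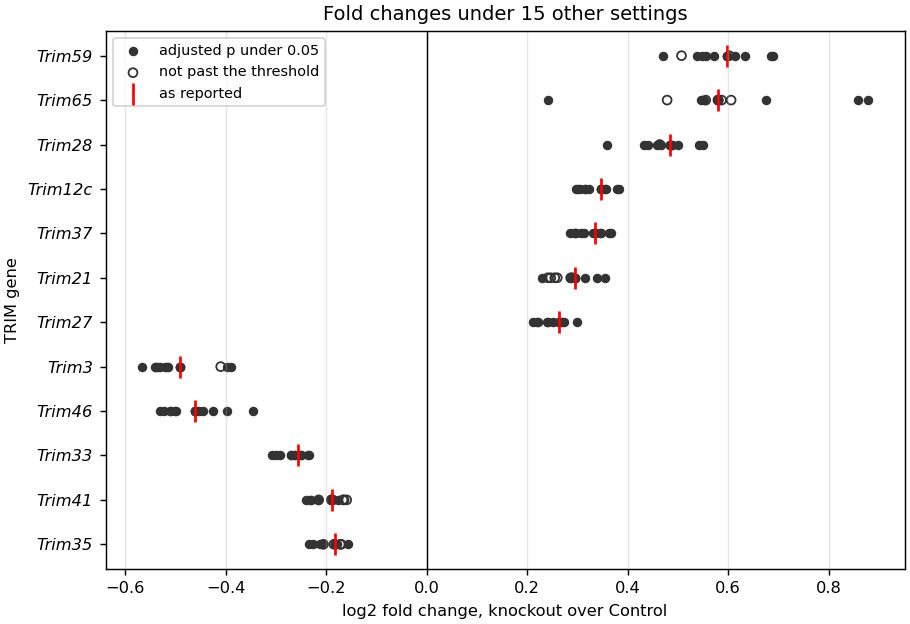
Log2 fold change of the 12 called TRIM genes under 15 other settings (filled where adjusted p is under 0.05, open where not), with the reported value as a red bar. All values keep their sign, and 5 genes have filled points alone.

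Innate antiviral and interferon-linked TRIM genes, a list that crosses the classes, had 10 tested members. Of these 3 were higher (Trim12c, Trim21 and Trim65) and the other 7 were not called, a share near the 28.5% called over all tested genes, and the median log2 fold change was 0.10. Beside them, 21 interferon-stimulated genes outside the family held 4 higher, 4 lower and 13 not called, with a median of -0.02, against the same 28.5% of all tested genes. That median turned to 0.07 without Control replicate 1, where 3 were higher and 2 lower, and to 0.13 without knockout replicate 3. Rsad2, the antiviral enzyme viperin, fell from 615 ± 99.5 to 246 ± 89.4 TPM and Isg15, a ubiquitin-like modifier, from 1239 ± 114 to 822 ± 131 TPM. Ifit1 fell by 0.58, and Ifih1, which encodes MDA5, the substrate of Trim65, fell by 0.57. Without Control replicate 1 neither was called (adjusted p = 0.0637 and 0.0613), nor was Ifit1 without Control replicate 3 (0.0545). Ifi44 (0.41) and Usp18 (0.33), chosen after their values were seen, rose.

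For the ubiquitin supply, 17 of 18 listed genes were tested, and 2 were higher, 3 lower and 12 not called, a share near the 28.5% called over all tested genes. Both scalings, median-of-ratios and upper-quartile, gave 1 higher and 5 lower. The polyubiquitin gene Ubb fell from 1415 ± 9.55 to 1079 ± 58.9 TPM. Ube2w, the E2 with which TRIM21 starts its own ubiquitination, fell from 58.2 ± 1.71 to 41.5 ± 3.40 TPM, while Ube2n, which builds lysine-linked chains after it, rose by 0.23 (SE 0.05). Ube2n lost its call without Control replicate 1 (0.0641) or 3 (0.0667). The list's 5 calls went to 3 without either of these libraries.

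The other 10 low TRIM genes (Trim7, Trim12a, Trim17, Trim29, Trim30b, Trim43b, Trim43c, Trim55, Trim62 and Trim69) had overlapping groups. Trim43c was the 1 low gene above 1 TPM in any library, at 0.133, 1.22 and 0.739 TPM in Control and 0.813, 1.09 and 0.389 TPM in knockout libraries.

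The libraries held 35495392 to 57686271 reads in rows that gave whole read numbers. Cd74 stood at 593 to 632 TPM in Control and 63.1 to 65.3 TPM in knockout libraries, in the direction of the labels. All 3 of its Control values were whole reads, but 0 of its 3 knockout values were. Of all values in rows with a known length, 98.2% to 98.3% were whole in each knockout library. Why the knockout values of Cd74 were not whole was not tested. Summed macrophage markers (8 of 8 with a row, 7 tested, 3 higher and 1 lower) were at 10597 to 11142 TPM in Control and 13941 to 15190.1 TPM in knockout libraries. That sum follows Lyz2, which rose from 5373 ± 355 to 8658 ± 778 TPM. Csf1r and Itgam were also called higher, Adgre1 fell from 489 ± 4.44 to 332 ± 34.0 TPM, and Cd68, Cd14 and Fcgr1 were not called. Neutrophil markers (2 of 6 with a row) summed to 16.2 to 17.8 and 23.3 to 29.2 TPM, but S100a8 rose from 5.01 ± 0.762 to 19.0 ± 3.34 TPM while Csf3r fell from 11.9 ± 1.43 to 7.39 ± 0.605 TPM. T cell markers (1 of 4) summed to 12.6 to 13.9 and 10.8 to 11.3 TPM, and B cell, dendritic, erythroid, stromal, muscle and neuron markers to at most 2.07 TPM in any library. The part of these marker differences in the TRIM differences was not tested.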

How the data were processed

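The authors deposited 1 table of TPM values for the 6 libraries. The header gives no unit: TPM was inferred because columns sum to 991721 to 998572. GRCm39 and DESeq2 are named without a role per the submitters' processing notes, and the aligner, counter and annotation are not given in the sources used here. TRIM genes, lists and tests were chosen with earlier results of these data known.

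The 13034 rows above the limit on the mean (1 TPM) were fitted with limma 3.58.1 in R 4.3.3 (trend and robust settings) on log2(TPM + 1), two-sided. Reads were recovered by multiplying TPM by union exon length (GENCODE M21, lengths alone) and dividing by each library's step. With a tolerance of 0.02 read, 16482 of 17217 rows (95.7%) were whole in all 6 libraries. A single read stood for 0.0558 to 0.0883 TPM at a length of 1 kb. The ratio of group means of each tested TRIM row lay within 0.25 (log2) of the median of the 40 rows on either side in the deposited order. The largest departure was 0.00482, so the rows appear sorted by that ratio, and the closeness is no result about TRIM genes. The fit was also run on simulated reads with the same spread for every gene, no batch and no outlying library. That setting is simpler than these data, so the run is no check of the calls given here. Named were all called TRIM genes, the 5 highest by mean, other tested ones within their class, low ones that reached 1 TPM or did not overlap, and the 4 largest called changes of each pathway list. The planned protein description could not be made. The other settings were pseudocounts of 0.1 and 5, a limit of 0.5 TPM or none, 2 scalings, no robust setting, a replicate block, each library left out and, added after the data were seen, limma-voom on recovered reads. Same-numbered libraries correlated at 0.134, -0.0766 and 0.0315 after removal of group means, and differently numbered ones at -0.168 to 0.168. So few correlations, with ranges that overlap, cannot decide whether the numbers pair the libraries. Some genes of the pathway lists are counted but not reported here by name.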

Additional observations from a re-analysis of the deposited data

How the results depend on the processing

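The 12 called TRIM genes (7 higher, 5 lower) numbered 11 to 14 under the other pseudocounts, filters, scalings, the fit without the robust setting, the replicate block and limma-voom. They numbered 5 to 12 (3 to 7 higher, 2 to 5 lower) with 1 library left out, with the fewest without Control replicate 1, where calls over all tested genes also went from 3719 to 2129. Calls among Trim28 and Trim33 partners ranged from 4 to 9, among ubiquitin genes from 3 to 6, and among interferon-stimulated genes from 5 to 9 with 1 library left out. The summed TRIM level in the knockout moved from 1035 to 1018 TPM under median-of-ratios scaling. With a replicate block 12 TRIM genes were called, 6 higher and 6 lower, with Trim45 gained (adjusted p = 0.0465) and Trim65 lost (adjusted p = 0.0516). Limma-voom added Trim45 (adjusted p = 0.0461) and Trim2 (adjusted p = 0.0303), and Trim41 was not called with no filter (adjusted p = 0.0644) or a limit of 0.5 TPM (adjusted p = 0.0528). Of 764 values of single genes under other settings, 34 lost and 5 gained a call, 0 called genes changed sign, and 16 values of genes not called did. All Control libraries being 1 batch, no setting separates batch from genotype.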
